A study of Mus musculus with 19 samples.

Results

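The genes described here encode the enzymes of phase II conjugation: the glutathione S-transferases (GSTs), their membrane-bound microsomal relatives (MGSTs), the UDP-glucosyl- and UDP-glucuronosyltransferases (UGTs) and the sulfotransferases (SULTs). They were taken by symbol, from every gene on the array with 1 annotated symbol that begins with the name of a GST class (Gsta, Gstk, Gstm, Gsto, Gstp, Gstt or Gstz), Mgst, Ugt1, Ugt2, Ugt8 or Sult. The rule used no measured value to choose a gene, and where a gene had several probe sets it took the probe set with the highest mean. It found 45 genes, measured by 58 probe sets, among 18193 genes: 20 GSTs, 3 MGSTs, 9 UGTs and 13 SULTs.

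RNA came from the dorsolateral (DLP) and ventral (VP) prostate of C57BL/6J mice, which were 8 weeks old when they started 12 weeks on a high fat diet (HFD) or a control diet, both fed without restriction, with 5 mice on each. The 19 arrays formed 4 groups: 4 of HFD DLP, 5 of control DLP, 5 of HFD VP and 5 of control VP. The labels name no genotype or transgene beyond the strain, and the composition of neither diet is given. The labels do not tie arrays to mice. With 5 mice on each diet, VP and DLP arrays can come from the same animals, and the tests between lobes treat all arrays as independent. The anterior lobe, which the labels also name, was not analysed here.

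Phase II enzymes join a small polar group to a drug, a steroid or a reactive product of lipid oxidation, which makes it more soluble and easier to export. GSTs attach the tripeptide glutathione to electrophiles, UGTs attach glucuronic acid from UDP-glucuronate, and SULTs attach sulfate from the donor PAPS. In human prostate, UGT2B enzymes inactivate androgens by glucuronidation, and the GSTP1 promoter is often methylated in cancer. Several rodent Gst genes are induced through the antioxidant response element, bound by NRF2, or the xenobiotic response element, bound by the aryl hydrocarbon receptor.

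Because the arrays separated these genes by lobe, the 250 bases upstream of the start of 4 genes that differed between DLP and VP are shown, from RefSeq on GRCm38.p6. Gsta2 (chr9:78347146-78347395, minus strand) was higher in DLP, and Gstt3 (chr10:75781423-75781672, minus strand), Gstt1 (chr10:75797732-75797981, minus strand) and Gstm5 (chr3:107895604-107895853, plus strand) were lower there. Capitals mark the 2 motifs searched on both strands, the antioxidant element core TGACNNNGC, with its reverse complement GCNNNGTCA, and the xenobiotic element core GCGTG, with its reverse complement CACGC.
Gsta2: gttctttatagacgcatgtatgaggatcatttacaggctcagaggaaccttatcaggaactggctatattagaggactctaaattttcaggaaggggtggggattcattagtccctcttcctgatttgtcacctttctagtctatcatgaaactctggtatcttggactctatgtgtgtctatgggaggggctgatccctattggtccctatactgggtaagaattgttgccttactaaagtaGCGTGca
Gstt3: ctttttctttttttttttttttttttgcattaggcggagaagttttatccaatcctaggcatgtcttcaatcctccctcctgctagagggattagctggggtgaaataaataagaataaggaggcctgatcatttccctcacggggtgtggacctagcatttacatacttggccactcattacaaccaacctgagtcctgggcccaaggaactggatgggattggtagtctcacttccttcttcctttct
Gstt1: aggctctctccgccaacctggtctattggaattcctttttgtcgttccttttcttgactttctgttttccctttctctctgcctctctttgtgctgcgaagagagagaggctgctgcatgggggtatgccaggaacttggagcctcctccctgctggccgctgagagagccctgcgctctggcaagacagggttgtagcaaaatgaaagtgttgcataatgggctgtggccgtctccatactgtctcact
Gstm5: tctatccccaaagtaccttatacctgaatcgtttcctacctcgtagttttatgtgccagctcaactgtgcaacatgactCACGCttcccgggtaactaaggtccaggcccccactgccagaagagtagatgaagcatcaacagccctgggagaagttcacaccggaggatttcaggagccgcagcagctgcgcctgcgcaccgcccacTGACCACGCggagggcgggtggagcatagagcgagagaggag
The Gsta2 window held 1 xenobiotic core, and the Gstm5 window held 1 antioxidant core and 2 xenobiotic cores, 1 of which overlaps the antioxidant core. Neither core was found in the Gstt1 and Gstt3 windows. RefSeq promoter entries matched 41 of the 45 genes, with 53 entries in all. The antioxidant core was found in 4 of the 53 entries (7.55%), those of Gsta3, Gstm5, Gstm7 and Mgst1, against 10.2% of 32851 promoters of the same length. The xenobiotic core was found in 11 of them (20.8%), against 28.2% of all promoters. A match is a run of letters and does not show that a factor binds there.

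Levels are given as log2 of the deposited array signal, in which the median probe set of each array stands at 1.85. Because probe sets differ in how strongly they bind, differences were taken between arrays for the same gene, and the mean over arrays was used across genes only to choose which member of a family is shown in full. Of the 45 genes, 19 were above the array median on all 19 arrays, namely 14 GSTs, 2 MGSTs and 3 SULTs, and another 19 were above it on none. The 23 genes above the median on at least 4 arrays were tested: 17 of 20 GSTs, 3 of 3 MGSTs, 0 of 9 UGTs and 3 of 13 SULTs. The genes above the median on fewer than 19 arrays but tested were Gstm3 (5 arrays), Gsta2 (9 arrays), Gstm6 (14 arrays) and Mgst2 (15 arrays).

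**Figure D1:**
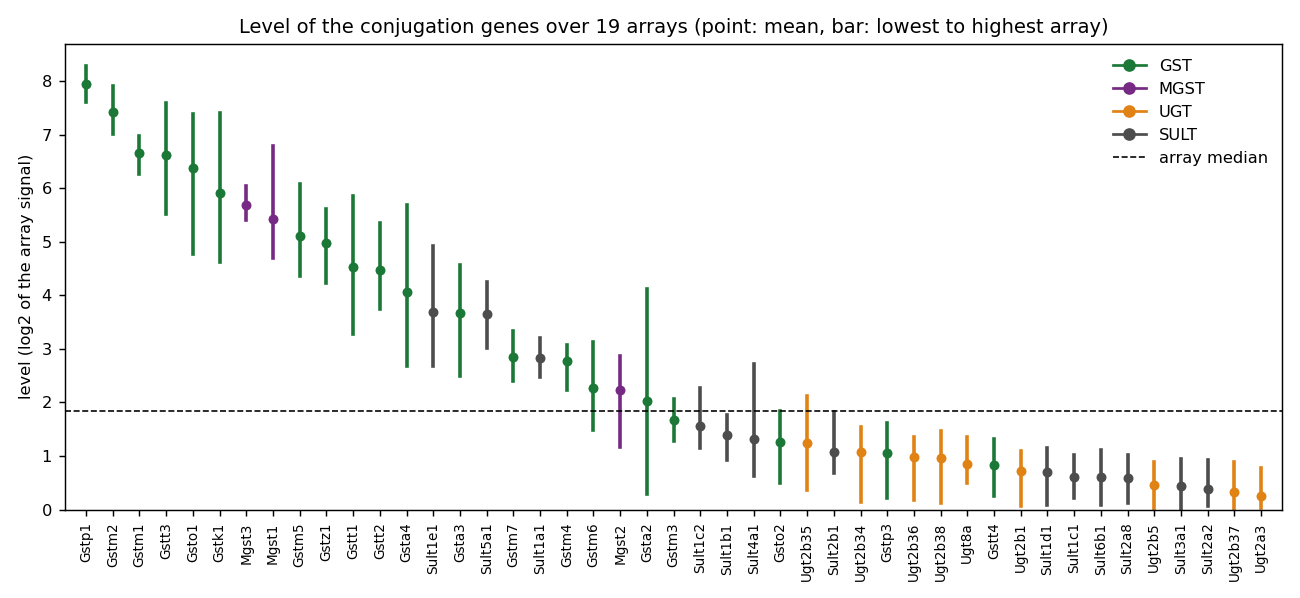
Level of each of the 45 genes on the log2 scale (vertical axis), with the mean over 19 arrays as a point and the range from the lowest to the highest array as a bar, coloured by family. The dashed line is the array median of 1.85. Points of UGT genes all lie below it. The bar of Gsta2 runs from 0.29 to 4.12 across it, and that of Sult4a1 reaches 2.71. Heights of different genes are not comparable.

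The lobe labels were checked against lobe genes. Tgm4, the DLP transglutaminase, was at 12.31 or more on every DLP array and at 2.37 or less on every VP array, and Nupr1 was at 5.76 or less in DLP and at 9.44 or more in VP. Markers of the other lobe stood high on some arrays, chiefly Spink1 in DLP and Msmb in VP. The log2 summed signal of the ventral markers Spink1 and Nupr1 was 11.60 on HFD DLP 2, 11.82 on control DLP 2 and 10.22 on control DLP 4, against 4.19 to 7.68 on the other DLP arrays and 12.30 to 13.04 in VP. Spink1 made up nearly all of these 3 sums, at 11.58, 11.81 and 10.21, while Nupr1 was at 5.76, 4.85 and 3.19 there, against 2.93 to 3.58 on the other DLP arrays. The dorsolateral sum of Msmb, Tgm4 and Mmp7 was 13.60 to 13.87 in DLP. In VP it was 12.18 to 12.94 on HFD VP 1, 3 and 5 and on control VP 1, 3 and 5, against 9.63 to 11.27 on the other VP arrays. In VP these sums followed Msmb, at 9.62 to 12.92, while Mmp7 was at 2.59 to 7.68, against 10.55 to 11.06 in DLP. Seminal vesicle markers (4 on the array, 2 tested) summed to 6.61 on HFD VP 2 and 4.99 on HFD DLP 1, against 1.49 to 3.53 on all other arrays. Macrophage markers summed highest in HFD VP 3 (6.73), and control VP 1, 3 and 4 stood at 6.16 to 6.32, against 5.11 to 5.58 on the other VP arrays. In VP the summed level of the luminal epithelial markers (6 of 6 tested) ran from 11.61 to 12.74 on HFD and from 11.53 to 12.64 on the control diet. In DLP it ran from 12.88 to 13.12 on HFD and from 12.86 to 13.09 on the control diet, so the lobes did not overlap. Pbsn, the probasin gene, made up most of this sum in DLP, at 12.39 to 12.73, with Krt18 next at 9.66 to 10.01. The sum is therefore no measure of luminal content. Single luminal genes differed in direction: Epcam, Cdh1, Hoxb13 and Krt8 were lower in DLP on both diets, Pbsn was higher and Krt18 was not called. Smooth muscle markers summed to 11.34 to 11.45 in HFD DLP and 11.12 to 11.30 in control DLP, against 10.85 to 11.33 in HFD VP and 10.82 to 11.17 in control VP. Fewer cells of a type and less RNA per cell cannot be told apart in these tissue samples, and the part of these markers in the differences below was not tested.

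The lobe contrasts ask in which lobe the RNA of each conjugation gene stands higher. Protein and enzyme activity were not measured on these arrays. Gsta2 passed the filter through its DLP arrays alone, so it had to differ, and it is described without a test. Of the other 22 tested genes, 15 (68.2%) differed between DLP and VP in HFD mice, with 5 higher and 10 lower in DLP. In control mice 14 of the 22 (63.6%) differed, with 5 higher and 9 lower. Among the 11248 genes above the median on arrays of both lobes, 51.8% were called in HFD mice (26.1% higher, 25.8% lower) and 53.7% in control mice (27.2% higher, 26.5% lower). Over all 11715 tested genes, Gsta2 included, 52.9% and 55% were called. The median absolute log2 difference of the 22 genes was 0.68 in HFD mice and 0.67 in control mice, against 0.29 and 0.28 over the 11248 genes. In HFD mice 4 of the 22 genes were higher and 8 lower in DLP with no overlap between the groups, beside 22.2% and 21.2% of the 11248 genes. In control mice 5 were higher and 8 lower with no overlap, beside 19.3% and 18.8%. All 14 genes called in control mice were called with the same sign in HFD mice, where Gstm3 was called as well. Gstm3, counted among the 15, passed the filter through HFD VP and control DLP arrays alone. That favoured the sign of its call, which is a description. Calls are limma adjusted p-values under 0.05, taken over all 11715 genes.

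The 3 tested theta genes were all lower in DLP. Gstt3, Gstt1 and Gstt2, cytosolic transferases of the class that also handles small halogenated compounds, were called on both diets. Gstt4, the other theta gene on the array, was at 1.33 or less on every array and was not tested. These genes lie in the order Gstt3, Gstt1, Gstt4, Gstt2 on chromosome 10 with 0 coding genes between neighbours. Gstt3 was at 5.62, 6.08, 5.60 and 5.64 in HFD DLP and at 5.66, 5.83, 5.80, 5.68 and 5.51 in control DLP, against 7.55, 7.49, 7.45, 7.59 and 7.58 in HFD VP and 7.29, 7.36, 7.25, 7.43 and 7.38 in control VP. Its highest DLP value, 6.08, was on HFD DLP 2, the array with Spink1 at 11.58 and Nupr1 at 5.76. The lowest VP value was 7.25. The part of these markers in the Gstt3 value was not tested. The DLP minus VP difference of Gstt3 was -1.80 ± 0.09 (SE) in HFD mice and -1.65 ± 0.08 (SE) in control mice, with limma adjusted p-values of 2.1e-12 and 2.6e-12. Gstt1 was at 3.59, 3.75, 3.66 and 3.51 in HFD DLP and at 3.57, 3.40, 3.28, 3.61 and 3.48 in control DLP, against 5.46, 5.37, 5.86, 5.86 and 5.32 in HFD VP and 5.39, 5.12, 5.21, 5.22 and 5.21 in control VP. Every DLP array was lower than every VP array, and its log2 difference was -1.95 ± 0.11 (SE) in HFD mice and -1.76 ± 0.10 (SE) in control mice, with limma adjusted p-values of 1.4e-11 and 2.1e-11. Gstt2 was at 4.26, 4.00, 4.20 and 4.18 in HFD DLP and at 3.91, 3.77, 3.74, 3.98 and 3.77 in control DLP, against 5.09, 5.23, 4.91, 5.35 and 5.19 in HFD VP and 4.35, 5.09, 4.92, 4.15 and 4.89 in control VP. The lobes did not overlap within either diet, although control VP 4, at 4.15, lay below the highest HFD DLP value, 4.26, and its log2 difference was -0.99 ± 0.15 (SE) in HFD mice and -0.85 ± 0.14 (SE) in control mice, with limma adjusted p-values of 1.2e-05 and 3.5e-05. On a linear scale the fitted means of Gstt3 were 3.47-fold lower in DLP of HFD mice and 3.13-fold lower in DLP of control mice.

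Among the alpha class, which detoxifies products of lipid peroxidation, Gsta4 was called between lobes. This enzyme, with high activity towards the lipid aldehyde 4-hydroxynonenal, was lower in DLP. Gsta4 was at 3.59, 3.23, 3.65 and 3.70 in HFD DLP and at 3.11, 2.67, 2.99, 2.79 and 3.76 in control DLP, against 4.93, 4.38, 5.38, 5.68 and 5.14 in HFD VP and 4.63, 4.37, 4.26, 4.32 and 4.62 in control VP. The lobes did not overlap on either diet, and its log2 difference was -1.56 ± 0.22 (SE) in HFD mice and -1.38 ± 0.20 (SE) in control mice, with limma adjusted p-values of 5.2e-06 and 1.1e-05. Gsta2 was at 3.31, 3.13, 3.49 and 3.35 in HFD DLP and at 3.82, 3.15, 3.38, 3.07 and 4.12 in control DLP, against 1.05, 0.59, 1.24, 0.96 and 0.56 in HFD VP and 1.14, 0.39, 1.24, 0.29 and 0.35 in control VP. This inducible enzyme of rodent liver was above the array median on the 9 DLP arrays and on no VP array, and the group means differed by 2.44 in HFD mice and 2.83 in control mice. The VP values sit in the low part of the signal range, and with 16 added to the signals in place of 1 these differences were 0.57 and 0.68. A second probe set, annotated to Gsta2 together with Gsta1 and Gm3776 and therefore outside the rule, averaged 2.79 in HFD DLP and 2.85 in control DLP, against 1.27 in HFD VP and 1.14 in control VP. Gsta3 overlapped between the lobes. Its log2 difference was 0.26 ± 0.35 (SE) in HFD mice and 0.64 ± 0.33 (SE) in control mice (limma adjusted p = 0.56 and 0.11), and without control VP 5 the control value was 0.92 with an adjusted p of 0.018. Its second probe set differed by 0.21 in HFD mice and 0.43 in control mice.

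**Figure D2:**
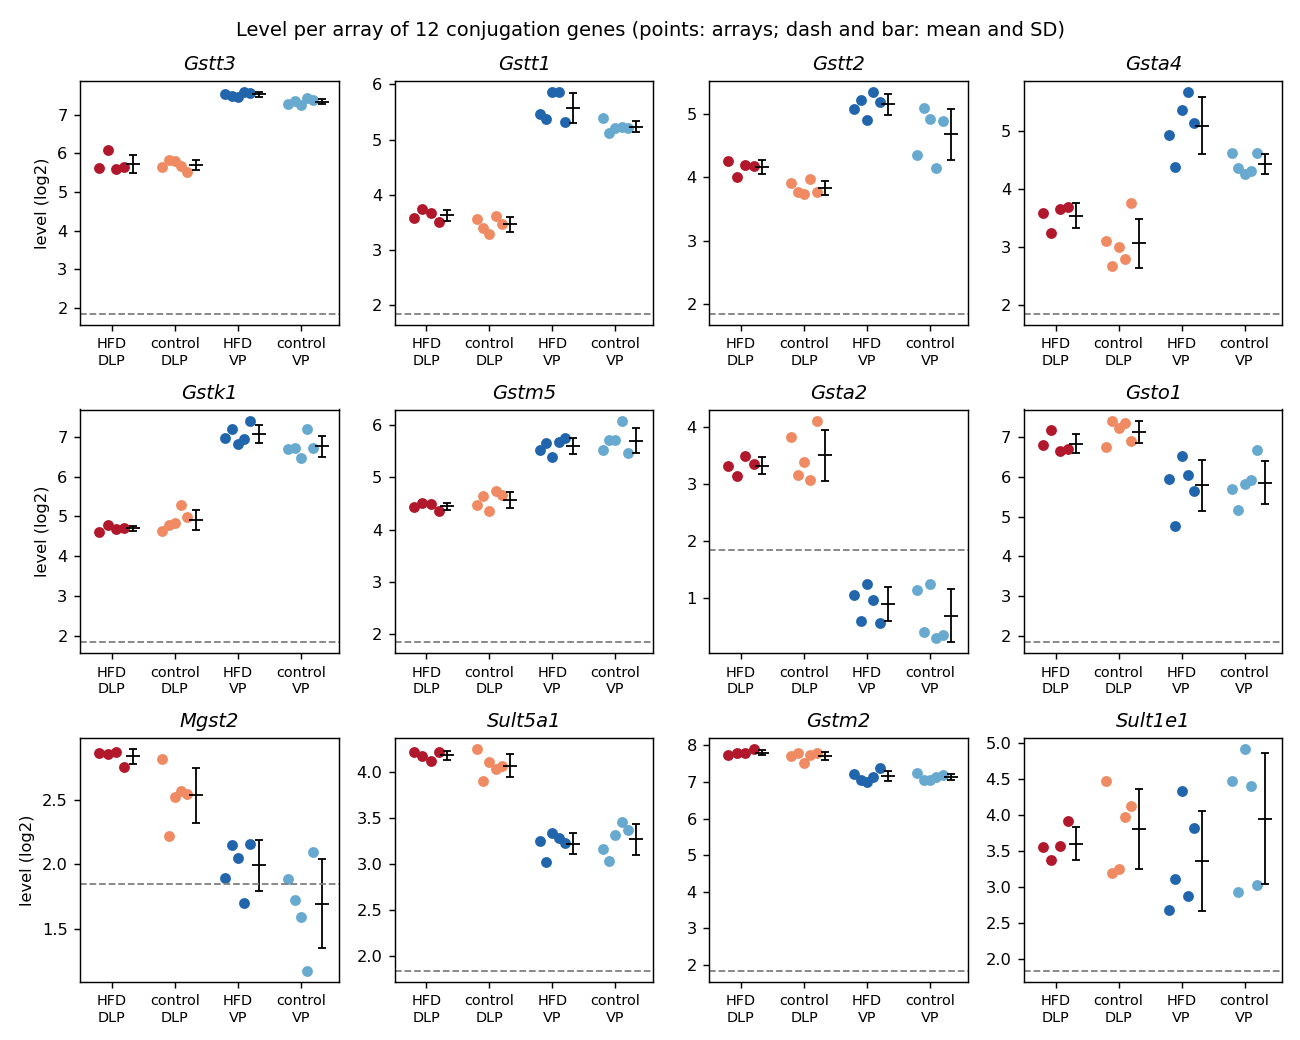
Level on the log2 scale (vertical axis) of 12 conjugation genes on each array, by group: HFD DLP, control DLP, HFD VP and control VP. Points are arrays, dashes and bars the mean and SD, and the dashed line the array median of 1.85. Gstt3, Gstt1, Gstt2, Gsta4, Gstk1 and Gstm5 sit lower in DLP, and Gsta2, Gsto1, Mgst2, Sult5a1 and Gstm2 higher. Sult1e1 overlaps between all groups.

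Gstk1, the kappa-class transferase of mitochondria and peroxisomes, was lower in DLP. Gstk1 was at 4.62, 4.78, 4.69 and 4.72 in HFD DLP and at 4.63, 4.79, 4.83, 5.28 and 4.99 in control DLP, against 6.97, 7.19, 6.82, 6.95 and 7.41 in HFD VP and 6.70, 6.71, 6.46, 7.20 and 6.71 in control VP. All DLP arrays were at 5.28 or less and all VP arrays at 6.46 or more. DLP minus VP, the Gstk1 difference was -2.36 ± 0.14 (SE) in HFD mice and -1.86 ± 0.13 (SE) in control mice, with limma adjusted p-values of 3.0e-11 and 4.2e-10, a 5.14-fold lower fitted mean in HFD mice and a 3.62-fold lower one in control mice.

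The mu class did not move together, although its 7 genes on the array lie side by side on chromosome 3 in the order Gstm5, Gstm7, Gstm6, Gstm3, Gstm2, Gstm1, Gstm4, with 0 coding genes between neighbours. Gstm5 and Gstm6 were lower in DLP on both diets, Gstm2 was higher on both, and the other four were not called on both. Gstm5 was at 4.42, 4.52, 4.48 and 4.36 in HFD DLP and at 4.46, 4.64, 4.35, 4.73 and 4.65 in control DLP, against 5.53, 5.65, 5.38, 5.68 and 5.75 in HFD VP and 5.53, 5.70, 5.72, 6.08 and 5.46 in control VP. The lobes did not overlap, and its log2 difference was -1.15 ± 0.11 (SE) in HFD mice and -1.13 ± 0.10 (SE) in control mice, with limma adjusted p-values of 2.9e-08 and 1.5e-08. Gstm2 was at 7.72, 7.79, 7.80 and 7.90 in HFD DLP and at 7.70, 7.80, 7.52, 7.72 and 7.78 in control DLP, against 7.22, 7.06, 7.00, 7.14 and 7.37 in HFD VP and 7.23, 7.06, 7.05, 7.13 and 7.19 in control VP. All DLP values were above all VP values, and its log2 difference was 0.64 ± 0.08 (SE) in HFD mice and 0.57 ± 0.07 (SE) in control mice, with limma adjusted p-values of 6.4e-07 and 1.4e-06. Gstm6 was at 1.75, 1.99, 2.23 and 1.79 in HFD DLP and at 1.48, 1.85, 1.60, 2.03 and 1.74 in control DLP, against 2.88, 3.14, 2.18, 2.24 and 2.83 in HFD VP and 2.77, 2.67, 2.73, 2.54 and 2.66 in control VP. The lobes overlapped in HFD mice and not in control mice. Its fitted lobe difference was -0.71 ± 0.17 (SE) in HFD mice and -0.93 ± 0.16 (SE) in control mice, with limma adjusted p-values of 0.0015 and 5.3e-05. Gstm3 was at 1.39, 1.77, 1.57 and 1.30 in HFD DLP and at 1.61, 1.86, 1.93, 1.54 and 1.75 in control DLP, against 1.86, 1.51, 1.83, 2.06 and 1.98 in HFD VP and 1.84, 1.57, 1.41, 1.28 and 1.64 in control VP. Gstm3 passed the filter through HFD VP 1, 4 and 5 and control DLP 2 and 3 alone. The filter thus favoured a lower value in HFD DLP than in HFD VP, so its call is a description. It was called in HFD mice alone, at -0.34 ± 0.14 (SE) with a limma adjusted p of 0.044, against 0.19 ± 0.13 (SE) and 0.23 in control mice. This call was lost without any 1 of 9 arrays and under 4 other settings, with adjusted p-values from 0.0501 to 0.142. The second Gstm3 probe set, above the array median on 0 arrays, differed the other way in HFD mice, by 0.52, and by 0.11 in control mice. Gstm1, a major mu-class enzyme of mouse liver, differed by 0.03 ± 0.12 (SE) in HFD mice (95% interval -0.22 to 0.29) and by 0.03 ± 0.11 (SE) in control mice (interval -0.21 to 0.27). Its 3 other probe sets differed by -0.03, 0.20 and 0.35 in HFD mice and by -0.0043, 0.24 and 0.47 in control mice. Probe sets of this class can bind RNA of more than 1 member, since the genes are close in sequence. Gstm4 and Gstm7 overlapped between lobes on both diets, and neither was called. In control mice Gstm4 differed by 0.23 ± 0.14 (SE) with a limma adjusted p of 0.16, and it passed the threshold (0.31, adjusted p = 0.019) when control VP 4 and HFD VP 3 were both left out. For Gstm7 the used probe set differed by 0.13 in HFD mice and -0.20 in control mice, and the second one by -0.14 and 0.33.

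Gsto1, an omega enzyme that reduces dehydroascorbate and methylated arsenic, was higher in DLP. Gsto1 was at 6.79, 7.17, 6.65 and 6.70 in HFD DLP and at 6.75, 7.39, 7.23, 7.36 and 6.89 in control DLP, against 5.94, 4.77, 6.51, 6.05 and 5.64 in HFD VP and 5.69, 5.17, 5.81, 5.91 and 6.67 in control VP. Within each diet every DLP array was above every VP array, yet the VP arrays spread from 4.77 to 6.67. The fitted difference between lobes was 1.04 ± 0.28 (SE) in HFD mice and 1.27 ± 0.26 (SE) in control mice, with limma adjusted p-values of 0.0039 and 0.00041. Its second probe set differed by 0.69 and 0.97. Gsto2, its neighbour on chromosome 19, was not tested, with a mean of 1.27 over the 19 arrays. Gstz1, the zeta enzyme of tyrosine breakdown (maleylacetoacetate isomerase), was at 5.48, 5.41, 5.10 and 5.07 in HFD DLP and at 5.28, 5.41, 5.38, 5.60 and 5.11 in control DLP, against 5.47, 4.56, 4.77, 4.23 and 4.34 in HFD VP and 4.77, 4.23, 4.49, 4.77 and 5.05 in control VP. The groups overlapped in HFD mice through HFD VP 1. DLP minus VP, the difference of Gstz1 was 0.59 ± 0.20 (SE) in HFD mice and 0.70 ± 0.19 (SE) in control mice, with limma adjusted p-values of 0.017 and 0.0036, and in HFD mice the call was lost without HFD VP 4 (adjusted p = 0.051) or HFD DLP 1 (0.057), and without HFD DLP 2, control DLP 2 and control DLP 4 (0.059).

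Gstp1, the pi-class enzyme, varied little. Gstp1 was at 7.74, 7.68, 7.76 and 7.86 in HFD DLP and at 7.60, 7.70, 7.61, 7.82 and 7.82 in control DLP, against 8.04, 8.24, 7.90, 8.13 and 8.18 in HFD VP and 8.17, 8.28, 8.05, 8.17 and 8.13 in control VP. Its pooled SD within groups was 0.10, below those of all but 9.53% of the tested genes. DLP was lower without overlap, by a small amount, and its log2 difference was -0.34 ± 0.07 (SE) in HFD mice and -0.45 ± 0.07 (SE) in control mice, with limma adjusted p-values of 0.00082 and 2.0e-05.

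The membrane-bound enzymes, whose family also holds enzymes that make leukotrienes and prostaglandins, divided. Mgst2 was at 2.86, 2.85, 2.87 and 2.75 in HFD DLP and at 2.81, 2.22, 2.52, 2.57 and 2.54 in control DLP, against 1.90, 2.15, 2.05, 1.70 and 2.16 in HFD VP and 1.88, 1.72, 1.59, 1.17 and 2.09 in control VP. Every DLP array was above every VP array, and its log2 difference was 0.85 ± 0.15 (SE) in HFD mice and 0.84 ± 0.14 (SE) in control mice, with limma adjusted p-values of 9.9e-05 and 5.3e-05. Mgst1 was at 4.89, 5.11, 5.06 and 5.12 in HFD DLP and at 5.76, 4.70, 4.84, 4.76 and 4.76 in control DLP, against 5.41, 5.69, 6.79, 6.32 and 5.70 in HFD VP and 6.16, 5.55, 5.45, 5.62 and 5.31 in control VP. Control DLP 1 overlapped the control VP range, while the HFD groups did not overlap. For Mgst1 the DLP minus VP difference was -0.94 ± 0.24 (SE) in HFD mice and -0.65 ± 0.23 (SE) in control mice, with limma adjusted p-values of 0.0031 and 0.021. The control call was lost without control VP 1 (adjusted p = 0.068), without control DLP 2 (0.053) and without HFD DLP 2, control DLP 2 and control DLP 4 (0.16). The second Mgst1 probe set, above the array median on 0 arrays, differed by -0.25 in HFD mice and -0.33 in control mice. Mgst3 was at 5.56, 5.40, 5.69 and 5.48 in HFD DLP and at 5.54, 5.59, 5.49, 5.69 and 5.80 in control DLP, against 5.62, 5.79, 5.94, 5.71 and 5.74 in HFD VP and 6.04, 5.93, 5.69, 5.70 and 5.57 in control VP. The lobes overlapped on both diets. Mgst3 stood next to the threshold in HFD mice, at -0.23 ± 0.09 (SE) with a limma adjusted p of 0.0501, and passed it when any 1 of 7 arrays was left out. It also passed with the 75th percentile filter (adjusted p = 0.043) and with the mean over probe sets (0.048). The 2 groups alone (0.039) and 1 weight per lobe (0.044) brought it past as well. In control mice it differed by -0.16 ± 0.09 (SE) with a limma adjusted p of 0.13, and of the arrays left out in turn only control VP 5 brought it past the threshold (-0.22, adjusted p = 0.049). Its second probe set differed by -0.18 and -0.11.

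Among the 3 tested sulfotransferases, Sult5a1 alone was called between lobes. Sult5a1 was at 4.21, 4.16, 4.11 and 4.21 in HFD DLP and at 4.24, 3.89, 4.10, 4.03 and 4.06 in control DLP, against 3.24, 3.02, 3.33, 3.28 and 3.23 in HFD VP and 3.16, 3.04, 3.31, 3.45 and 3.37 in control VP. It was higher on every DLP array than on any VP array, and its log2 difference was 0.95 ± 0.09 (SE) in HFD mice and 0.80 ± 0.08 (SE) in control mice, with limma adjusted p-values of 2.8e-08 and 1.4e-07. Sult1e1, the oestrogen sulfotransferase, had the widest spread within groups among the 23 genes, with a pooled SD of 0.66 that exceeded 98.9% of the tested genes. Sult1e1 was at 3.55, 3.37, 3.57 and 3.92 in HFD DLP and at 4.48, 3.20, 3.25, 3.97 and 4.12 in control DLP, against 2.68, 3.12, 4.34, 2.88 and 3.81 in HFD VP and 4.47, 2.93, 4.91, 4.40 and 3.03 in control VP. The 4 highest VP values were on HFD VP 3 and on control VP 1, 3 and 4, the 4 VP arrays with the highest macrophage marker sums, and the highest DLP value was on control DLP 1, which had the highest such sum in DLP (5.80). Fibroblast marker sums were also highest in VP on HFD VP 3 (9.81) and control VP 1 and 3 (9.60 each). In DLP they were highest on control DLP 1 (9.60). Control VP 4, at 9.21, was below HFD VP 5, at 9.29. The part of macrophage or fibroblast RNA in the Sult1e1 level was not tested. All groups overlapped, and the 95% interval of the DLP minus VP difference was -0.58 to 1.05 in HFD mice and -0.91 to 0.63 in control mice. Sult1a1, the phenol sulfotransferase, differed by -0.08 ± 0.14 (SE) in HFD mice and 0.19 ± 0.13 (SE) in control mice and was not called.

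With the offset of 16, the lobe differences of genes with low signals fell by more than 1.5 times and kept their sign and call. Mgst2 then differed by 0.22 in HFD mice and 0.19 in control mice, Sult5a1 by 0.44 and 0.37, Gsta4 by -0.90 and -0.64, and Gstt1 by -1.20 and -1.01. Gstm6 differed by -0.22 in control mice and Gstt2 by -0.62 in HFD mice. Without HFD DLP 2, control DLP 2 and control DLP 4, the arrays with high Spink1, 15 of the 23 genes were called in HFD mice and 14 in control mice, Gsta2 among them.

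**Figure D3:**
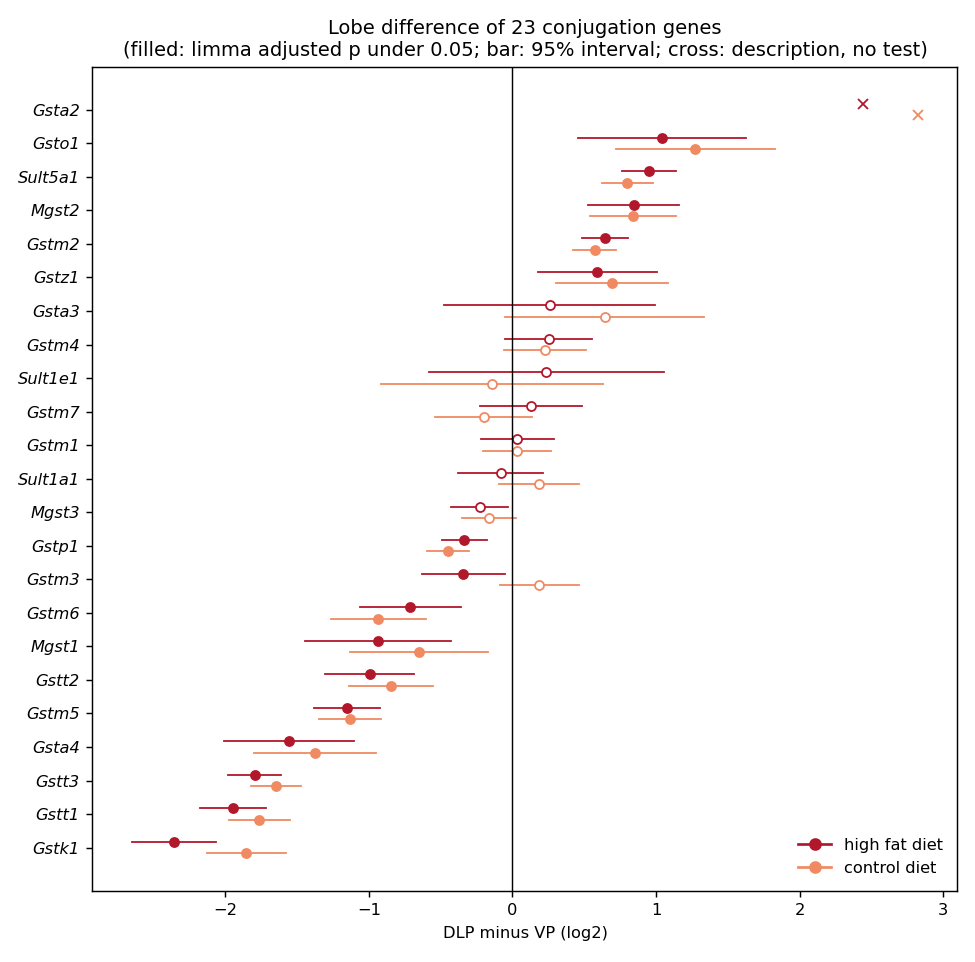
Fitted DLP minus VP difference on the log2 scale (horizontal axis) of the 23 tested genes in HFD mice and in control mice. Points are estimates, filled where the limma adjusted p was under 0.05, and bars are 95% intervals. Crosses give Gsta2, which has no test. Gstk1, Gstt1 and Gstt3 lie farthest to the left, at -1.65 or below, and Gsta2 farthest to the right, at 2.44 and 2.83.

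The diet contrasts ask whether 12 weeks on the high fat diet changed the RNA levels of these genes. No conjugation gene passed the threshold in either lobe. In VP the count was 0 of 23, beside 1.11% of all tested genes, and in DLP it was 0 of 23, beside 0%. At an unadjusted limma p under 0.05, 6 of 23 genes (26.1%) stood out in VP, beside 15.2% of all genes, and 2 of 23 (8.70%) in DLP, beside 5.63%. The 6 include Gstm3, which in VP passed the filter through HFD arrays alone. The HFD minus control difference was above 0 for 15 of 23 genes in VP (65.2%, beside 52.1% of all genes) and for 13 of 23 in DLP (56.5%, beside 53.7%). The median difference was 0.10 in VP and 0.04 in DLP, against 0.01 over all genes in each lobe. Among 43 tested cell type markers 0 were called for diet by limma in either lobe, and 9 (20.9%) had an unadjusted p under 0.05 in each.

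Luminal epithelial, smooth muscle, adipocyte and fibroblast markers were set beside the diet values. Of 6 luminal markers, 3 were above 0 in VP and 5 in DLP. An unadjusted limma p under 0.05 was found for 1 in VP and 2 in DLP, and the medians were 0.03 and 0.12. All 5 smooth muscle markers were above 0 in each lobe, 3 in VP and 2 in DLP with an unadjusted p under 0.05, and their median difference was 0.22 in VP and 0.26 in DLP. Of the adipocyte markers, 4 were on the array and Car3 and Fabp4 were tested, while Adipoq and Lep were under the filter. Both tested genes were below 0 in VP, by -1.19 for Car3 (limma adjusted p = 0.075) and -0.23 for Fabp4. In DLP Car3 differed by -1.01 and Fabp4 by 0.01. The adipocyte sum was 4.72 to 5.15 in HFD VP, against 5.11 to 5.88 in control VP, and 4.47 to 4.65 in HFD DLP, against 4.07 to 5.48 in control DLP. Of 5 fibroblast markers, 2 were above 0 in VP and 1 in DLP, 2 and 1 had an unadjusted p under 0.05, and the medians were -0.14 and -0.08. Their sum was 8.86 to 9.81 in HFD VP, against 8.85 to 9.60 in control VP, and 9.07 to 9.28 in HFD DLP, against 9.03 to 9.60 in control DLP. The part of these markers in the diet values was not tested.

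The smallest VP p-values belonged to theta and alpha genes. Gstt2 was at 5.09, 5.23, 4.91, 5.35 and 5.19 in HFD VP, against 4.35, 5.09, 4.92, 4.15 and 4.89 in control VP. Control VP 1 and 4 were low, and the other three control arrays, at 4.89 to 5.09, overlapped the low end of the HFD range or lay just below it. The difference was 0.47 ± 0.14 (SE), with a limma adjusted p of 0.10 and a 95% interval of 0.18 to 0.77. Gstt1 differed by 0.34 ± 0.10 (SE, adjusted p = 0.11, limma), with HFD VP 3 and 4, both at 5.86, above the rest. Gstt3 differed by 0.19 ± 0.08 (SE, adjusted p = 0.28, limma) and was the 1 gene of the 23 whose VP groups did not overlap. Its HFD values were 7.55, 7.49, 7.45, 7.59 and 7.58, against 7.29, 7.36, 7.25, 7.43 and 7.38 in control VP. Of all tested genes, 1.38% were higher without overlap in HFD VP and 1.2% lower.

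Gsta4 had the largest VP difference of the 23 genes. It was at 4.93, 4.38, 5.38, 5.68 and 5.14 in HFD VP, against 4.63, 4.37, 4.26, 4.32 and 4.62 in control VP, and HFD VP 2 alone lay within the control range. The difference was 0.66 ± 0.20 (SE), a 1.58-fold higher fitted mean, with a limma adjusted p of 0.12 and an interval of 0.23 to 1.09. Without HFD VP 2 it was 0.84 ± 0.18 (SE) with an adjusted p of 0.040, the 1 case in which leaving out an array brought a conjugation gene past the threshold for diet. HFD VP 2 was also the VP array with the high seminal vesicle sum, 6.61, with Svs4 at 5.76 and Svs5 at 5.27, and its part in the Gsta4 value was not tested. Over all settings its adjusted p ran from 0.040 to 0.29. With the offset of 16 its difference was 0.44, and that of Gstt2 was 0.31. Gstk1 was at 6.97, 7.19, 6.82, 6.95 and 7.41 in HFD VP, against 6.70, 6.71, 6.46, 7.20 and 6.71 in control VP, and differed by 0.31 ± 0.13 (SE, limma adjusted p = 0.27). Control VP 4, at 7.20, was the 1 control array within the HFD range. Gstm3 was at 1.86, 1.51, 1.83, 2.06 and 1.98 in HFD VP, against 1.84, 1.57, 1.41, 1.28 and 1.64 in control VP, all near the array median, and differed by 0.30 ± 0.13 (SE, adjusted p = 0.28, limma). That difference was 0.05 with the offset of 16, and the second Gstm3 probe set differed by -0.36. In VP, Gstm3 was above the array median on HFD arrays alone, so the filter favoured a value above 0.

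In DLP, Gstt2 was at 4.26, 4.00, 4.20 and 4.18 in HFD mice, against 3.91, 3.77, 3.74, 3.98 and 3.77 in control mice. It was the 1 gene of the 23 whose DLP groups did not overlap, beside 2.02% of all tested genes higher without overlap and 1.13% lower. Its difference was 0.33 ± 0.15 (SE), with a limma adjusted p of 0.85. Gsta4 was at 3.59, 3.23, 3.65 and 3.70 in HFD DLP, against 3.11, 2.67, 2.99, 2.79 and 3.76 in control DLP, where control DLP 5 stood above all HFD values. It differed by 0.48 ± 0.22 (SE, limma adjusted p = 0.85). Mgst2 differed by 0.30 ± 0.15 (SE), Gstm7 by 0.30 ± 0.17 (SE) and Gstm3 by -0.23 ± 0.14 (SE), with limma adjusted p-values of 0.89, 0.94 and 0.96. Gstm7 was at 2.89, 2.61, 3.33 and 3.10 in HFD DLP, against 2.53, 2.60, 2.70, 2.54 and 3.03 in control DLP. Its second probe set, above the array median on 3 arrays, differed the other way, by -0.28, and that of Gstm3 differed by 0.05. In DLP, Gstm3 was above the array median on control arrays alone, so the filter favoured a value below 0. With the offset of 16 the differences of Gstt2, Gsta4, Mgst2, Gstm7 and Gstm3 were 0.17, 0.18, 0.09, 0.10 and -0.04.

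**Figure D4:**
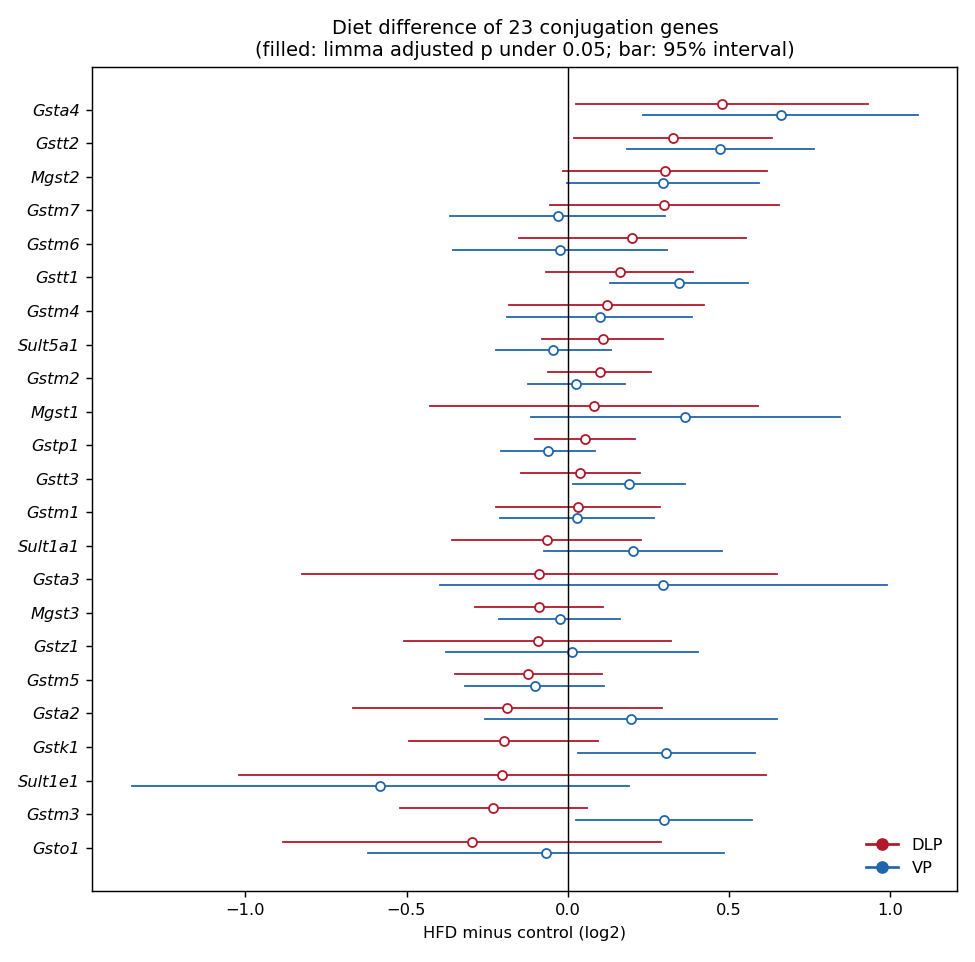
Fitted HFD minus control difference on the log2 scale (horizontal axis) of the 23 tested genes in VP and in DLP. Points are estimates, open because no limma adjusted p was under 0.05, and bars are 95% intervals. Gsta4 has the highest VP value, 0.66, and Sult1e1 the lowest, -0.58, with a wide bar.

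For several genes with little spread the intervals limit how large a diet change in RNA level could be. The HFD minus control interval of Gstp1 was -0.21 to 0.09 in VP and -0.10 to 0.21 in DLP, and that of Gstm2 was -0.12 to 0.18 in VP and -0.06 to 0.26 in DLP. For Mgst3 it was -0.21 to 0.16 in VP and -0.29 to 0.11 in DLP. The bounds for Sult1e1 and Gsta3 were far wider, -1.35 to 0.19 and -0.40 to 0.99 in VP.

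Whether the diet change differed between the lobes was tested directly. No conjugation gene passed, 0 of 23, beside 0.00854% of all tested genes, and 2 of 23 (8.70%) had an unadjusted limma p under 0.05, beside 8.44%. Gstm3 had a DLP minus VP difference of its diet change of -0.53 ± 0.19 (SE, limma adjusted p = 0.46) and Gstk1 of -0.51 ± 0.19 (SE, limma adjusted p = 0.49). Gstm3 passed the filter through HFD VP and control DLP arrays alone, which favoured a negative value here, so its value is a description. The diet differences of its second probe set, 0.05 in DLP and -0.36 in VP, had signs opposite to those of the used one. The diet and lobe contrasts share arrays, so their values are not independent.

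The low-signal genes were mostly UGTs and SULTs. The 22 untested genes had means from 0.25 to 1.56. All 9 UGTs were among them, with means from 0.25 for Ugt2a3 to 1.24 for Ugt2b35, and 8 of them were above the array median on no array. Ugt8a was at 1.14, 0.60, 1.20 and 0.93 in HFD DLP and at 0.84, 1.21, 0.62, 1.35 and 0.52 in control DLP, against 0.53, 0.66, 0.66, 0.73 and 1.33 in HFD VP and 0.73, 0.74, 1.22, 0.70 and 0.50 in control VP. This enzyme makes galactocerebroside for myelin, and its groups overlapped. The Ugt2b genes encode enzymes that glucuronidate steroids. Ugt2b35 was at 2.12, 1.83, 1.82 and 1.73 in HFD DLP and at 1.34, 1.93, 1.66, 2.01 and 1.66 in control DLP, against 0.92, 1.01, 0.72, 0.94 and 0.55 in HFD VP and 0.75, 0.91, 0.89, 0.37 and 0.36 in control VP. All DLP arrays were above all VP arrays, though only 3 exceeded the array median. Fitted without the filter it differed by 1.05 ± 0.16 (SE) in HFD mice and 1.06 ± 0.15 in control mice, with limma adjusted p-values of 1.5e-05 and 5.3e-06. Without the filter, 2 of the 22 genes were called between lobes in HFD mice, the other being Gsto2 (-0.47), and 3 in control mice, with Sult4a1 (0.70) and Sult2a8 (-0.48) beside Ugt2b35. In that fit 34.8% of all 18193 genes were called in HFD mice and 37.3% in control mice. For diet 0 of the 22 genes were called in either lobe by limma, beside 0.429% in VP and 0.0055% in DLP, and 2 in VP and 1 in DLP had an unadjusted p under 0.05, beside 12.2% and 5.37%. Ugt2b35 lies within a run of 8 Ugt2 genes on the array on chromosome 5 with 0 coding genes between neighbours, and the other seven were above the array median on no array.

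The Sult2, Sult3 and Sult6 genes stayed below the array median on every array. Sult2b1 was at 0.74, 1.17, 0.99 and 0.70 in HFD DLP and at 1.13, 0.69, 1.02, 0.72 and 0.77 in control DLP, against 1.65, 0.78, 1.40, 1.47 and 0.97 in HFD VP and 1.31, 1.25, 1.82, 0.72 and 1.31 in control VP. Sult2b1 sulfates cholesterol and other hydroxysteroids. Sult3a1 was at 0.25, 0.13, 0.60 and 0.94 in HFD DLP and at 0.35, 0.73, 0.62, 0.40 and 0.82 in control DLP, against 0.02, 0.66, 0.55, 0.26 and 0.78 in HFD VP and 0.03, 0.11, 0.01, 0.88 and 0.23 in control VP. Sult6b1 was at 0.42, 0.41, 0.29 and 0.29 in HFD DLP and at 0.35, 0.88, 0.85, 1.12 and 0.46 in control DLP, against 0.54, 0.68, 0.82, 0.93 and 0.09 in HFD VP and 0.51, 0.89, 0.24, 0.98 and 0.95 in control VP. The groups of these 3 genes overlapped on both diets and in both lobes.

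Sult4a1, a sulfotransferase-like protein of brain neurons, was above the array median on 3 arrays alone. It was at 0.63, 1.16, 1.46 and 1.36 in HFD DLP, against 1.27, 2.06, 1.24, 2.26 and 2.71 in control DLP. In VP it was at 1.17, 0.74, 1.10, 1.13 and 0.86 in HFD mice and at 0.89, 1.37, 1.42, 1.50 and 0.87 in control mice. Control DLP 2, 4 and 5 were the high arrays. Nerve markers were highest on the same 3 arrays: Nefl, a neurofilament subunit, was at 5.03, 3.95 and 5.37 there, against 1.76 and 1.69 on control DLP 1 and 3 and 2.09 to 2.95 in HFD DLP. The summed level of the 4 nerve markers, all tested, ran from 3.71 to 4.51 in HFD DLP and from 3.47 to 6.99 in control DLP. The part of nerve RNA in the Sult4a1 level was not tested. A second Sult4a1 probe set stayed below the array median on average in every group.

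**Figure D5:**
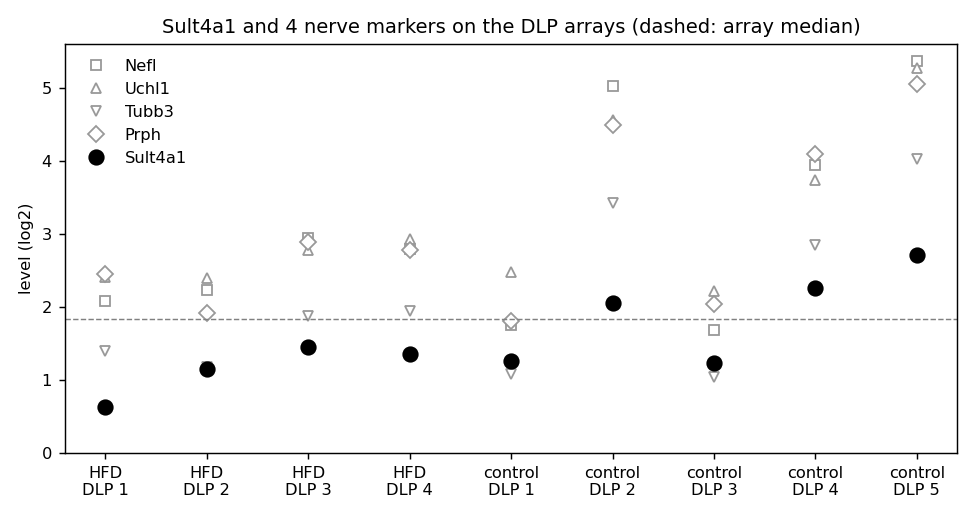
Level on the log2 scale (vertical axis) of Sult4a1 (filled circles) and of the nerve markers Nefl, Uchl1, Tubb3 and Prph (open symbols) on the 4 HFD DLP and 5 control DLP arrays. The dashed line is the array median of 1.85. Sult4a1 exceeds it on control DLP 2, 4 and 5, at 2.06, 2.26 and 2.71, where the nerve markers are highest too.

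The genes that supply and surround the conjugation step were followed with listed pathways. They form 8 lists with 65 tested genes. By limma, 0 of 65 passed the threshold for diet in either lobe, and 8 in VP (12.3%) and 6 in DLP (9.23%) had an unadjusted p under 0.05, beside 15.2% and 5.63% of all tested genes. The smallest adjusted p was 0.12, in VP for glutathione synthesis. In each lobe contrast 40 of the 65 genes (61.5%) were called, beside the 52.9% and 55% of all tested genes. Of glutathione synthesis and recycling, 7 of 11 tested genes were called in HFD mice (3 higher, 4 lower in DLP) and 8 of 11 in control mice (4 higher, 4 lower). The 2 subunits of glutamate-cysteine ligase, which makes the first bond of glutathione, went opposite ways. Gclc, the catalytic subunit, differed by -0.78 in HFD mice and -0.80 in control mice, and Gclm, the modifier subunit, by 0.61 and 0.71. Glutathione synthetase, Gss, was higher in DLP by 1.33 and 1.28, and Chac1, which degrades glutathione, by 2.32 and 1.68. Anpep, an aminopeptidase that trims glutathione breakdown products, differed by -2.62 and -2.12.

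Of the sulfate donor list, 9 of 11 genes were called in HFD mice (4 higher, 5 lower) and 8 of 11 in control mice (3 higher, 5 lower). Papss2, a PAPS synthase that makes the sulfate donor used by every SULT, averaged 6.78 in HFD DLP and 6.93 in control DLP, against 9.96 in HFD VP and 9.71 in control VP, a log2 difference of -3.18 ± 0.18 (SE) and -2.78 ± 0.17 (limma adjusted p = 1.5e-11 and 4.1e-11). Its paralogue Papss1 differed by -1.02 and -0.79. In the UDP-glucuronate list 3 of 5 genes were called in HFD mice (2 higher, 1 lower) and 2 of 5 in control mice (1 higher, 1 lower). Ugp2, which makes UDP-glucose, was higher in DLP by 0.37 and 0.38, a small rise that does not stand for the list. The smallest limma adjusted p-values of the list were 4.8e-10 in HFD mice and 3.3e-11 in control mice. The gene called lower in DLP is not named here.

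All 6 tested hydrolases and reductases that act before or beside conjugation were lower in DLP of HFD mice, and 5 of 6 in control mice. Cbr3, a carbonyl reductase, differed by -1.48 and -1.21, and Aldh1a1, a retinal dehydrogenase, by -1.57 and -1.17. Of 14 tested genes of the NRF2 and xenobiotic receptor list, 3 were higher and 2 lower in each diet. Nfe2l2, which encodes NRF2, averaged 4.63 in HFD DLP and 4.57 in control DLP, against 5.87 in HFD VP and 5.69 in control VP (-1.24 ± 0.07 and -1.12 ± 0.07, limma adjusted p = 1.7e-11 and 2.9e-11). Nqo1, a quinone reductase induced by NRF2, was higher in DLP, by 0.54 and 0.65. Of 6 export genes, 2 were called in HFD mice (1 higher, 1 lower) and 3 in control mice (2 higher, 1 lower), and Abcc3, an exporter of glucuronides, was higher in DLP by 2.10 and 1.66. Among 7 tested relatives of the GST fold and the MAPEG family outside the rule, 5 were called in HFD mice (3 higher, 2 lower) and 4 in control mice (3 higher, 1 lower). They included Ptges, the microsomal prostaglandin E synthase, higher in DLP by 1.40 and 1.99. Of 5 other phase II transferases, 3 were called in HFD mice (1 higher, 2 lower) and 5 in control mice (2 higher, 3 lower), with Hnmt, histamine methyltransferase, at -1.62 and -1.65 and Nat2, an arylamine acetyltransferase, at -1.31 and -1.38.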

How the data were processed

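RNA of 19 prostate samples was measured on 3′ expression arrays, 1 sample per array. The authors deposited values on a log10 scale (base inferred, not stated; offset taken as 1), made with MAS5 per the submitters' processing notes. Once sorted, the values of all 19 arrays are the same, so they carry ranks within an array and cannot show a shift common to most genes. Deposited values ran from 0 to 3.99 and were converted to log2 here. Of 45101 probe sets, 64 were controls, and 34945 others had 1 symbol. Symbols were updated by gene identifier. Each gene was represented by its probe set of highest mean, and 11715 genes above their array's median on at least 4 arrays were tested with limma 3.58.1 in R 4.3.3 (4 group means, eBayes with trend, two-sided, Benjamini-Hochberg threshold 0.05), a fit also tested on simulated data. P-values reflect the spread among these arrays alone, and the number of arrays limits the precision. Genes with values on every array were the 5 smallest diet p-values per lobe, the 6 largest called lobe differences per direction without overlap, and the highest mean of each family; Mgst1 and others were named after their values were seen. The alternatives are given at the end. Genes and lists were chosen with earlier results of these data known.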

Additional observations from a re-analysis of the deposited data

Results flagged for a closer look

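Of 72 sets of 4 or 5 arrays examined (18 genes in 4 groups), 2 held an array far from the others of its group, where chance gives about 5% of sets. Gstt3 was at 6.08 on HFD DLP 2, and the next highest HFD DLP array was at 5.64. Of the ventral markers, Spink1 was at 11.58 on that array, against 3.50 to 4.07 on the other HFD DLP arrays, and Nupr1 at 5.76, against 2.93 to 3.34 there and 9.44 to 10.67 in VP, and their part in the Gstt3 value was not tested. Mgst2 was at 2.75 on HFD DLP 4, against 2.85 to 2.87 on the other three arrays, a narrow group in which a gap of 0.10 stood out.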

How the results depend on the processing

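Over the alternatives, 143 of 144 counts of called conjugation genes stayed within 1.5 times the reported count, and no named difference changed sign. The exception was diet in VP, where the count was 1 in place of 0 without HFD VP 2, through Gsta4 (0.84, limma adjusted p = 0.040). Leaving out each array in turn gave 0 to 1 called genes for diet in VP, 0 to 0 in DLP, 14 to 17 between lobes in HFD mice and 14 to 17 in control mice. The filter at the 75th percentile left 16 genes, of which 13 were called between lobes in HFD mice and 12 in control mice, and no filter gave 17 and 18 of 45. Without control VP 4 and HFD VP 3 the counts were 15 and 16. Gsta2, which had to differ between lobes, did not pass the 75th percentile filter. The other lobe counts here, with those of the replicate block below, include it. The matching counts of the reported fit were 16 in HFD mice and 15 in control mice. The fit without the 3 DLP arrays of high ventral marker sums (Spink1 for the most part) was chosen after seeing the data. Deviations of same-numbered samples correlated at 0.46 and 0.38 for numbers 2 and 3 of HFD VP with control VP and at -0.15 to 0.19 for the other pairs, and with the replicate block 0 genes were called for diet in either lobe and 15 between lobes on each diet. Over all genes, the count for diet in VP depended on the setting: 130 as reported, 0 with the 2 groups alone, 20 with 1 weight per lobe, 47 with the mean over probe sets, 78 without the filter, 93 with the replicate block, 28 without those 3 DLP arrays, 210 under the 75th percentile filter and 70 to 148 with each array left out in turn; the causes were not tested. For diet in DLP it was 0 as reported, 1 without the filter, 1 without those 3 arrays, 6 with 1 weight per lobe and 4 with the offset of 16. Low signals limit the size of a fold.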

Other observations

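The Ugt1 locus, whose enzymes share their last exons, was covered by 3 probe sets that each carry 8 Ugt1a symbols and so fell outside the rule. Their group means were 3.37, 2.72 and 1.97 in HFD DLP and 3.67, 2.98 and 1.98 in control DLP, against 3.03, 2.51 and 1.56 in HFD VP and 3.22, 2.51 and 1.61 in control VP. The first and second of these probe sets were above the array median on all 19 arrays and the third on 10, unlike any of the 9 UGT genes measured by a probe set with 1 symbol. They do not tell the Ugt1a enzymes apart and were not tested.

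After Sult1e1, the tested genes with the widest spread within groups were Gsta3, Gsto1 and Mgst1. The pooled SD was 0.59 for Gsta3, 0.47 for Gsto1 and 0.41 for Mgst1, above those of 98.6%, 97.3% and 95.6% of tested genes. That of Gstm2 was 0.11, above those of 11.7%.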
